A study of Mus musculus with 4 samples.

Results

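The genes described here encode the natriuretic peptides, their receptors and 2 of the enzymes that process them. The 8 genes are Nppa, Nppb, Nppc, Npr1, Npr2, Npr3, Corin and Furin. They were chosen by name, and each was paired with 1 probe, so the 8 genes were read by 8 probes among the 16390 genes with a symbol on the array. Total RNA of left ventricles of male C57BL/6 mice was hybridised to 4 arrays, 1 for each group. The groups were STIM1KO after transverse aortic constriction (TAC), STIM1KO after a sham operation, WT after TAC and WT after a sham operation. TAC ties the aortic arch against a wire of 0.3 mm and so loads the left ventricle with pressure. Surgery was done at 10 weeks of age, and hearts were taken 4 weeks later, at 14 weeks. STIM1 is the endoplasmic reticulum calcium sensor that opens Orai channels when the store empties. The labels do not say in which cells STIM1 was lost, whether 1 or both alleles were, or whether RNA of several mice was pooled. They give average ratios of heart weight to body weight of 4.9 in STIM1KO TAC, 4.5 in STIM1KO sham, 6.7 in WT TAC and 4.1 in WT sham, with no unit.

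Natriuretic peptides are hormones of the heart that lower blood pressure, promote sodium excretion and restrain growth of heart muscle and fibrosis. Nppa encodes atrial natriuretic peptide (ANP) and Nppb B-type natriuretic peptide (BNP), which cardiomyocytes secrete on stretch, and both are classical marker genes of a loaded ventricle. ANP and BNP act through the membrane guanylyl cyclase encoded by Npr1, which makes cyclic GMP. C-type natriuretic peptide (CNP), from Nppc, acts through the cyclase encoded by Npr2, and Npr3 encodes the receptor that clears all these peptides from the circulation. Corin is a serine protease on the cardiomyocyte surface that cuts pro-ANP, and furin is a proprotein convertase that cuts pro-BNP and pro-CNP.

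Nppb and Nppa lie beside each other on mouse chromosome 4, in that order on the plus strand. Their upstream sequences are shown because the 2 ligand genes are neighbours and yet differed in their order over the arrays. The 250 bases before each transcription start come from RefSeq (GRCm38.p6, plus strand), at chr4:147985650-147985899 for Nppb and chr4:148000472-148000721 for Nppa. Capitals mark GATAA on either strand, the core letters that GATA factors bind.
Nppb: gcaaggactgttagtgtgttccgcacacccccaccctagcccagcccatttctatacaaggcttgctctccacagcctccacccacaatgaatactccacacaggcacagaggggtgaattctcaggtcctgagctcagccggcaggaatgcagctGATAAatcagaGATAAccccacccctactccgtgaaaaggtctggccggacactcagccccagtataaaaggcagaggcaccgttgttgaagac
Nppa: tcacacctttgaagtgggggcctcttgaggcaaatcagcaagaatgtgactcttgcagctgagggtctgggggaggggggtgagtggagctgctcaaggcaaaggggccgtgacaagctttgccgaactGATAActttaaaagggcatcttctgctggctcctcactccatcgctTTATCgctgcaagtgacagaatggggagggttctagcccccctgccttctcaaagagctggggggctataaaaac
Each window held 2 GATAA matches. In Nppb both lay on the plus strand, with their first bases 94 and 83 bases before the start. In Nppa the first base of 1 lay 121 bases before the start on the plus strand, and the other, read on the minus strand, at 75 bases. Of 32851 mouse windows of the same length, 22.6% held at least 1 GATAA and 4.28% at least 2. None of the windows of the other 6 genes held it. Both ligand windows also held TATAAA, which 12.4% of windows do. Nppa had 2 matches to AAGTG, where 40.7% of windows held at least 1 and 10.2% at least 2. Nppb had 1 match to CATTCC (12.6% of windows), and neither had a CArG box (1.47%). The matches describe letters only, not binding.

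The authors deposited 1 linear intensity for each probe and array. Values below were quantile-normalized between the arrays, and differences are on the log2 scale. With a single array for each group there was no spread between mice, no test and no p-value, so every difference compares arrays. As a measure of how far apart 2 arrays lay, each difference is set beside the SD of the same difference over the 500 genes nearest in level. That SD holds measurement error and real differences together, and with 1 probe a gene the error of a single probe could not be checked. Only genes measured on every array and with a mean intensity of 29.3 or more were counted, 7020 in all. The STIM1KO TAC array stood apart. Its correlations with the other arrays over those genes were 0.963 to 0.974, against 0.987 to 0.990 among the other arrays. Stim1 itself had 13.8 on STIM1KO TAC and 20.7 on STIM1KO sham, against 33.9 on WT TAC and 41.6 on WT sham. STIM1KO was 2.46-fold lower after TAC and 2.01-fold lower after sham. Its signal was lower on both arrays labelled STIM1KO but was not lost. The counted ventricular cardiomyocyte genes were bright, with the myoglobin gene Mb the highest at 65551 or more on every array. Values as bright as those of Mb are set mostly by rank in quantile normalization. Ryr2, of the same list, was dim, between 2.77 and 5.57, and was not counted. The atrial markers Myl7 and Sln stayed at or below 11.8 and Myl4 at or below 32.3, and none of these 3 had a mean over the level for counting. They do not speak for the 10 atrial markers listed, of which 6 were counted, among them Clu at 3747 or more.

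Of the 8 genes, 7 had a value on every array and 5 reached the level for counting, namely Nppa, Nppb, Npr2, Corin and Furin. Nppb, Nppa and Corin were bright, each above the 94th percentile of probes on every array. Npr2 and Furin lay in the middle of the range, between the 56th and the 67th percentile. Nppc, Npr1 and Npr3 were dim.

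**Figure D1:**
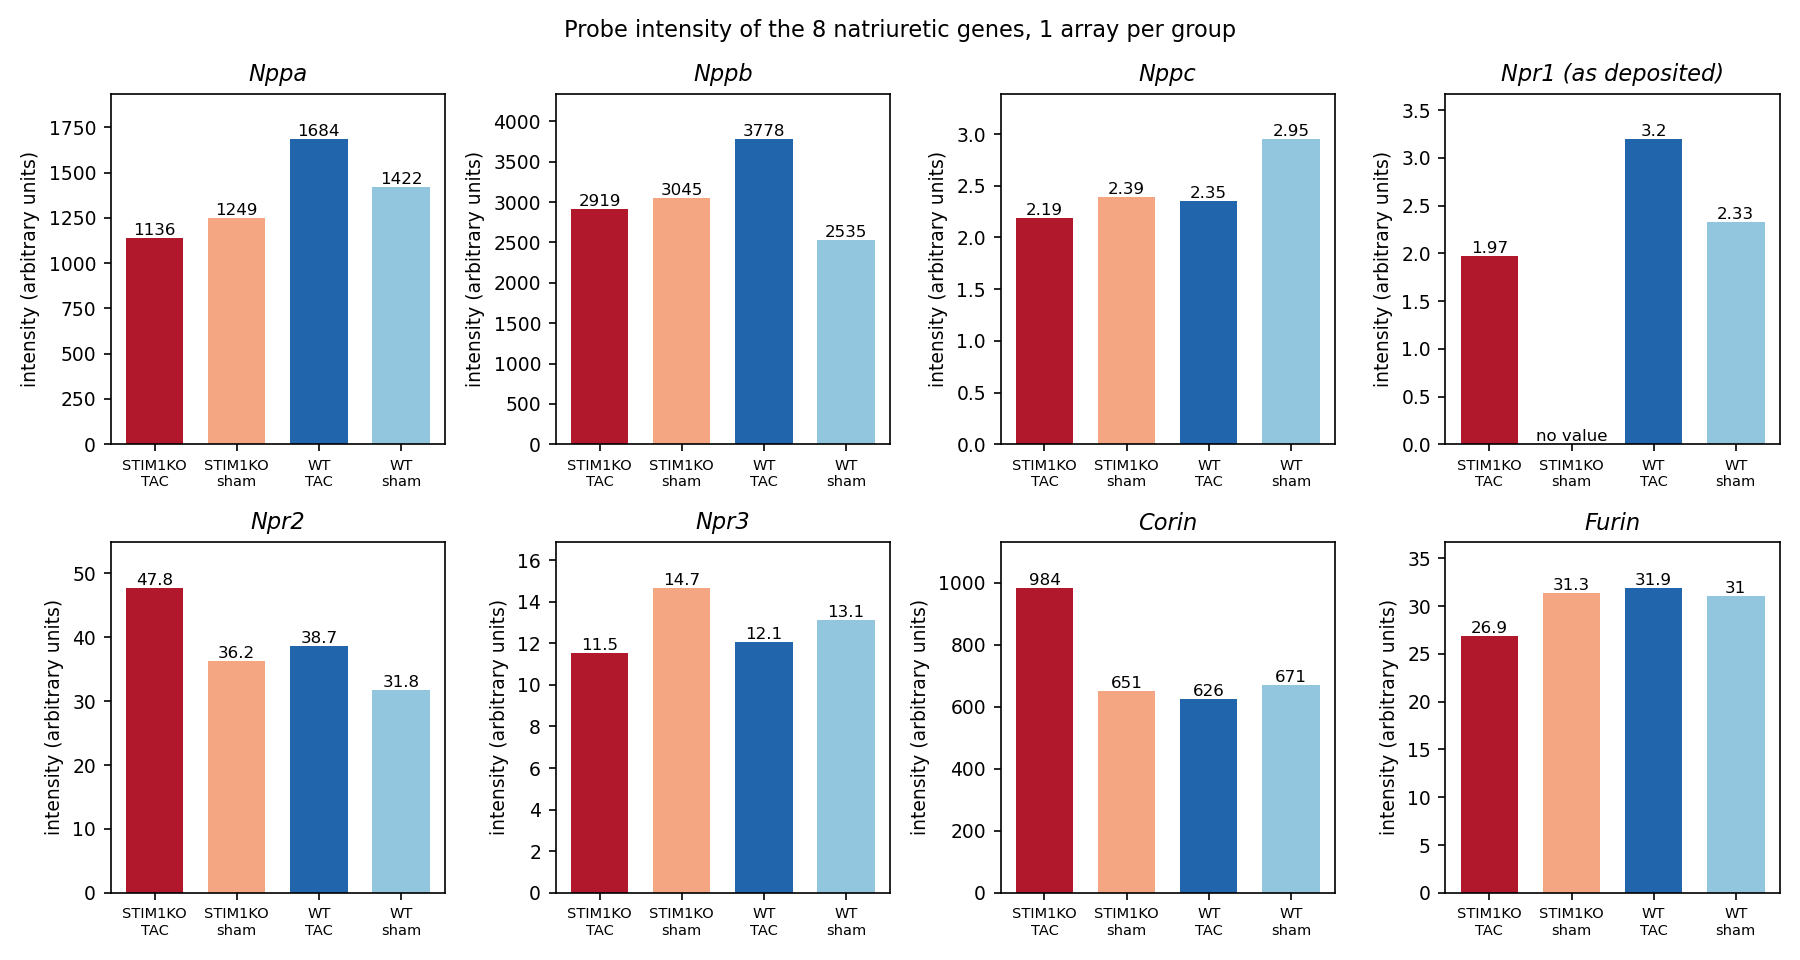
Intensity of each natriuretic gene on the 4 arrays (bars from 0 on a linear axis that differs between genes, in arbitrary units, with no error bars since each group has 1 array). Values are normalized, except those of Npr1, which are as deposited and lack a STIM1KO sham value. Nppb was highest on WT TAC (3778) and Corin on STIM1KO TAC (984), while the order for Nppa put both WT arrays above both STIM1KO arrays.

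Nppb, the BNP gene, had an intensity of 2919 on STIM1KO TAC, 3045 on STIM1KO sham, 3778 on WT TAC and 2535 on WT sham. WT TAC stood above the other arrays, and both STIM1KO arrays lay between the WT ones. In WT, the TAC array was 1.49-fold above sham, a log2 difference of 0.58 against an SD of 0.25 in genes of like level. This was the 113th highest of 7020 differences. It was the only value of any of the 5 counted genes, over both responses and both genotype comparisons, outside the central 95% of its 500 neighbours in level, whose upper limit was 0.49. In STIM1KO, TAC and sham differed by -0.06 (SD of neighbours 0.39). Between genotypes, Nppb differed by 0.26 after sham (SD 0.28) and by -0.37 after TAC (SD 0.39), both within that SD. In the order of arrays, the lead of WT TAC over the next, STIM1KO sham, was 0.31 against an SD of 0.29, and no other step in the order passed its SD.

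Nppa, the ANP gene, read 1136 on STIM1KO TAC, 1249 on STIM1KO sham, 1684 on WT TAC and 1422 on WT sham. Both STIM1KO arrays lay below both WT arrays, whichever the operation. The largest of its differences was between the TAC arrays, where STIM1KO was 1.48-fold lower (-0.57, SD of neighbours 0.39). That placed it at the 8th percentile of genes of like level. After sham the genotype difference was -0.19 (SD 0.31). TAC against sham gave 0.24 in WT (SD 0.25) and -0.14 in STIM1KO (SD 0.40). No neighbouring arrays in the order of Nppa were farther apart than the SD.

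The ligand genes thus shared the sign of their difference in both responses and between the TAC arrays, and had opposite signs between the sham arrays. Nppc, the CNP gene, had 2.19 on STIM1KO TAC, 2.39 on STIM1KO sham, 2.35 on WT TAC and 2.95 on WT sham, near the bottom of the range of each array. Its differences ran between -0.33 and -0.10, with SDs of 0.65 to 0.75 in genes as dim, so no order of the arrays could be read.

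Among the receptors, only Npr2 reached the level for counting. This CNP receptor gene read 47.8 on STIM1KO TAC, 36.2 on STIM1KO sham, 38.7 on WT TAC and 31.8 on WT sham. Each TAC array was above the sham array of its genotype, and each STIM1KO array above the WT array of the same operation. The response to TAC was 0.40 in STIM1KO (SD of neighbours 0.53) and 0.28 in WT (SD 0.30). STIM1KO minus WT was 0.31 after TAC (SD 0.52) and 0.19 after sham (SD 0.31). All 4 were within the SD of genes of like level.

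Npr3, the clearance receptor gene, read 11.5 on STIM1KO TAC, 14.7 on STIM1KO sham, 12.1 on WT TAC and 13.1 on WT sham. Both TAC arrays were below both sham arrays. The response was -0.35 in STIM1KO (SD 0.54) and -0.12 in WT (SD 0.36), within the SD of genes as dim. Npr1, the ANP and BNP receptor gene, had deposited intensities of 1.97 on STIM1KO TAC, 3.20 on WT TAC and 2.33 on WT sham, and its STIM1KO sham cell was empty. The lowest value deposited on any of these arrays was 1.14, so the probe for the main receptor was near the floor, and no difference is given for it.

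Corin, the pro-ANP protease gene, had 984 on STIM1KO TAC, 651 on STIM1KO sham, 626 on WT TAC and 671 on WT sham. STIM1KO TAC stood above the other arrays, which lay close together. STIM1KO TAC was 1.57-fold above WT TAC (0.65, SD of neighbours 0.38) and 1.51-fold above STIM1KO sham (0.60, SD 0.39). These lay at percentiles 96.6 and 94.2 of genes of like level, inside their central 95%. The response in WT was -0.10 (SD 0.24) and the difference between the sham arrays -0.04 (SD 0.29). The step from STIM1KO TAC to the next array, WT sham, was 0.55 against an SD of 0.45, and the remaining steps in the order of Corin were 0.06 or less. The array with the high value is also the one that stood apart over all genes, and the part of that in the result was not tested.

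Furin, at 26.9 on STIM1KO TAC, 31.3 on STIM1KO sham, 31.9 on WT TAC and 31.0 on WT sham, passed the level for counting only narrowly, with a mean of 30.2. STIM1KO TAC was the lowest, with a difference of -0.25 from WT TAC (SD of neighbours 0.47) and of -0.22 from STIM1KO sham (SD 0.44). The other arrays were within 0.04 of each other, and the differences from STIM1KO TAC were within the SD.

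**Figure D2:**
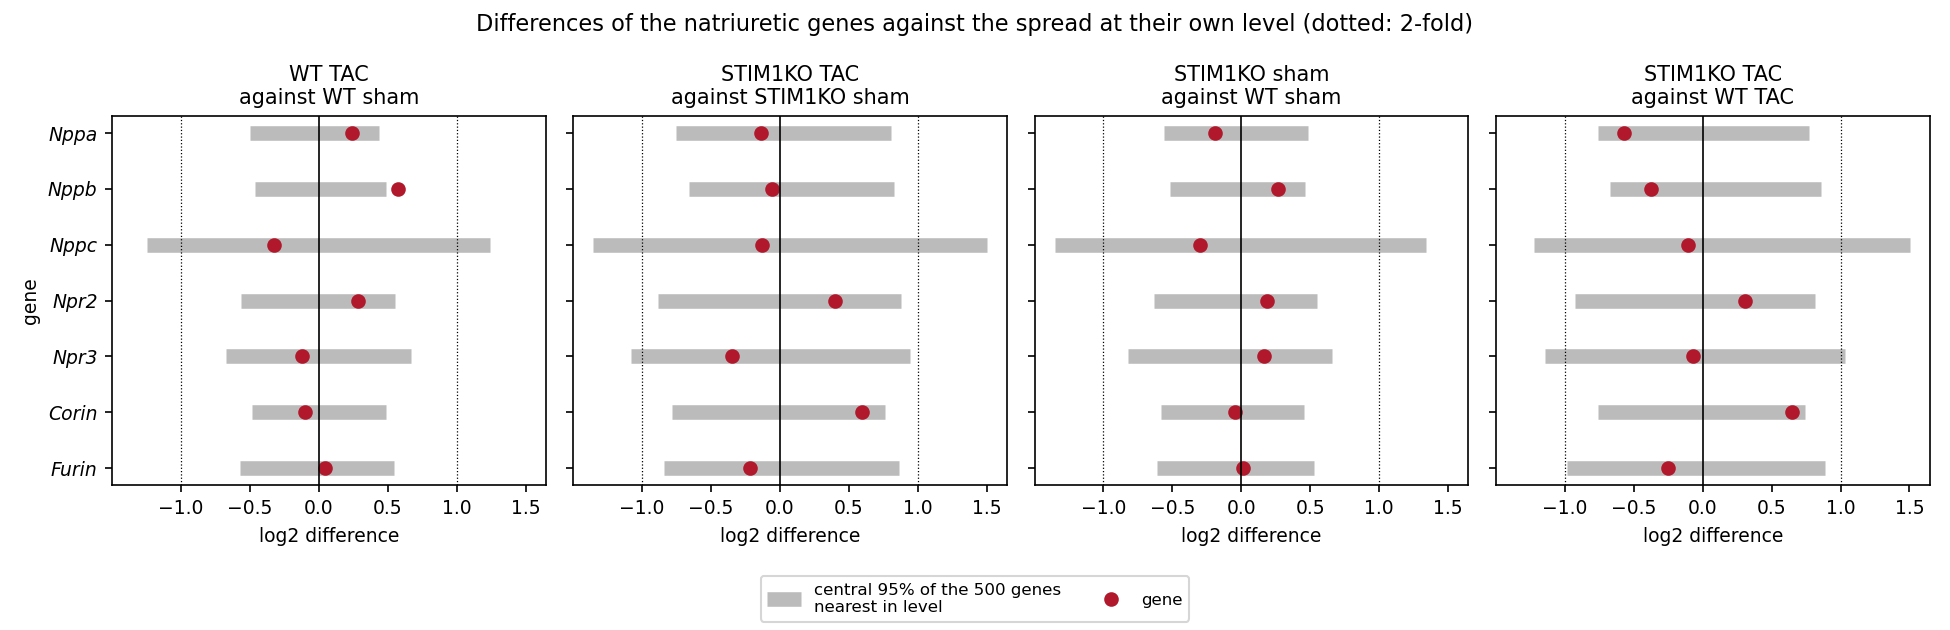
Log2 differences (red points) of the 7 natriuretic genes with a value on every array, in each response to TAC and each genotype comparison (panels), over the central 95% of the 500 genes nearest in level (grey bars), with dotted lines at 2-fold. Of the points drawn, only Nppb in WT TAC against WT sham (0.58) lay outside its bar. Some genes lie outside such a bar by definition.

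In the response of WT to TAC, 0 of the 5 counted genes reached 2-fold, where 0.313% of all genes did, and 0 reached 1.5-fold, where 2.85% did. Nppa, Nppb, Npr2 and Furin were above 0 and Corin below, and the median was 0.24, against -0.01 over all genes counted. With the 2 dim genes Nppc and Npr3 included it was 0.04. In the response of STIM1KO, 0 of 5 reached 2-fold (1.85% of all genes did). Corin was the 1 gene at 1.5-fold, where 14.4% of all genes were in either direction and 7.31% on the higher side. Npr2 was the other gene above 0. The median was -0.06, against 0.00 over all genes.

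Between the sham arrays, 0 of 5 were at 2-fold (0.556% of all genes) and 0 at 1.5-fold (3.96%). Their median was 0.02, and it was -0.03 with values as deposited and -0.04 with the filter at the 75th percentile. Between the TAC arrays, 0 of 5 were at 2-fold (1.97% of all genes), and Corin was the 1 gene at 1.5-fold (14.5% of all genes in either direction, 6.31% on the higher side). Nppa, Nppb and Furin were lower in STIM1KO TAC and Npr2 and Corin higher, and the median was -0.25, against 0.01 over all genes. It was -0.10 with the 2 dim genes and -0.37 over the 3 genes above the 75th percentile. The 4 comparisons share arrays, so their values are not independent of each other. With 5 genes counted, 1 at 1.5-fold is near the share over all genes, and nothing about the family is read from it.

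The response of STIM1KO minus the response of WT was -0.64 for Nppb, -0.38 for Nppa, -0.26 for Furin, 0.12 for Npr2 and 0.69 for Corin. SDs in genes of like level were between 0.40 and 0.53. None of the 5 reached 2-fold here (2.15% of all genes did), and 2 were past 1.5-fold, where 14.1% of all genes were. They were Nppb on the lower side (5.94% of all genes) and Corin on the higher side (8.15%). Nppb lay at the 2.8th percentile of its neighbours in level and Corin at the 95.2nd, both inside the central 95%. Nppa lay within the SD of its neighbours (0.41), and the dim ligand gene Nppc had 0.20, on the other side from Nppb. Set beside the heart weight ratios, Nppb, Nppa and Furin were highest in the group with the highest ratio, WT TAC. The order of the other groups did not follow the ratio, since Nppa was lowest on STIM1KO TAC, the group with the next highest ratio, and Nppb was lower there than on STIM1KO sham.

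**Figure D3:**
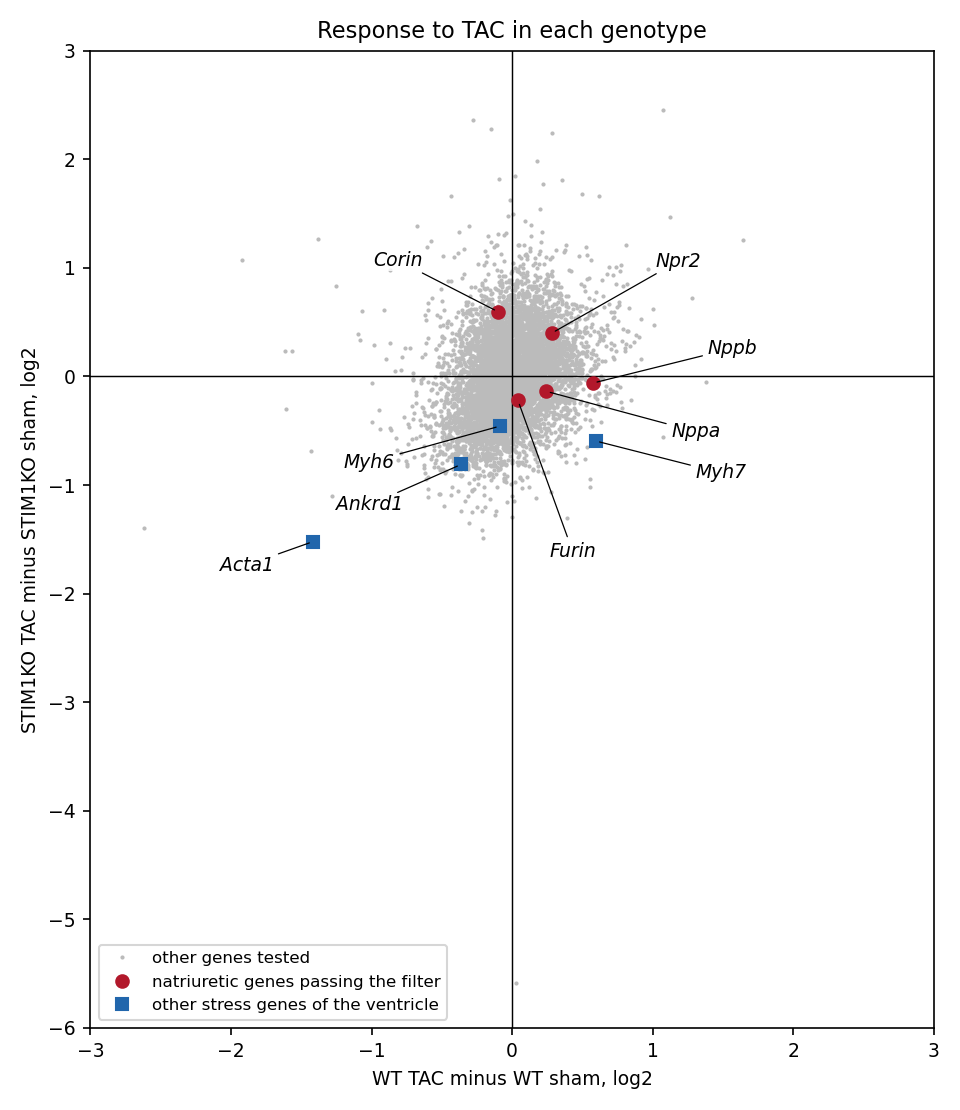
Response to TAC of each of 7020 genes in WT (horizontal axis, log2) and in STIM1KO (vertical axis, log2). Natriuretic genes are red circles and other stress genes of the ventricle blue squares. Nppb (0.58 in WT, -0.06 in STIM1KO) lies on the right side within the cloud, 113th highest in WT. Corin (-0.10 and 0.60) lies in its upper part, 488th highest in STIM1KO, and Acta1 (-1.41 and -1.52) at the lower left.

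Other stress and fetal genes of the ventricle did not follow a single pattern. Myh7, the slow myosin heavy chain, read 46.5 on STIM1KO TAC, 70.2 on STIM1KO sham, 76.3 on WT TAC and 50.6 on WT sham. Like Nppb it was highest on WT TAC, with a response of -0.59 in STIM1KO (SD of neighbours 0.43) and 0.59 in WT (SD 0.26). Acta1, skeletal alpha-actin, was lower on the TAC array in both genotypes, with log2 differences of -1.52 in STIM1KO and -1.41 in WT. Its intensities were 688 on STIM1KO TAC, 1973 on STIM1KO sham, 706 on WT TAC and 1881 on WT sham. Ankrd1, a stretch-responsive cofactor of the cardiac nucleus, had responses of -0.81 in STIM1KO and -0.36 in WT. Of the 10 symbols in this list 7 were counted. The STIM1KO response had 1 of them above 0 and 6 below (median -0.46), and the WT response 2 above 0 and 5 below (median -0.12). Acta1 was the only one at 2-fold in either response (1.85% of all genes in STIM1KO, 0.313% in WT). The 7 include Myh6 (-0.46 in STIM1KO, -0.08 in WT) and Atp2a2 (-0.28 and -0.20). The counts and medians therefore do not describe genes of a single direction under load.

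Downstream of the receptors, the genes that make and break down cyclic GMP were mostly dim, and 3 of the 13 listed were counted. Endothelial nitric oxide synthase, Nos3, had 124 on STIM1KO TAC, 137 on STIM1KO sham, 164 on WT TAC and 151 on WT sham. Pde1b, a calcium-dependent phosphodiesterase, read 30.3 on STIM1KO TAC, 41.8 on STIM1KO sham, 45.0 on WT TAC and 41.9 on WT sham. Both were lowest on STIM1KO TAC, with differences from WT TAC of -0.40 for Nos3 and -0.57 for Pde1b, each near the SD of its neighbours (0.39 and 0.51). Pde2a, a phosphodiesterase that cyclic GMP activates, went the other way, with 133 on STIM1KO TAC, 138 on STIM1KO sham, 116 on WT TAC and 125 on WT sham. Gucy1b1, the beta subunit of soluble guanylyl cyclase, was below the level for counting, with 8.70 on STIM1KO TAC, 19.9 on STIM1KO sham, 25.6 on WT TAC and 27.7 on WT sham. Its difference between the TAC arrays was -1.56 (SD 0.51), and -1.13 after an offset of 5.49 was added to damp dim values. The alpha subunit genes Gucy1a1 and Gucy1a2, also dim, went the other way there, at 0.31 and 0.72. None of the 3 counted genes was at 2-fold in a response or a genotype comparison, where 0.313% to 1.97% of all genes were.

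Among effectors of cyclic GMP signalling, 5 of 12 listed genes were counted. None was at 2-fold in these 4 comparisons (0.313% to 1.97% of all genes were). Rgs2, which shortens signalling by Gq and is a target of the cyclic GMP-dependent kinase, read 448 on STIM1KO TAC, 239 on STIM1KO sham, 332 on WT TAC and 424 on WT sham. The STIM1KO sham array was the low one, and the response was 0.91 in STIM1KO (SD of neighbours 0.39) and -0.35 in WT (SD 0.26). Rgs4, of the same family, ran the other way, with 48.6 on STIM1KO TAC, 62.1 on STIM1KO sham, 80.4 on WT TAC and 63.2 on WT sham. Pln, the phospholamban gene and a substrate of that kinase, was higher on STIM1KO TAC than on WT TAC by 0.55 (SD 0.39). Prkg1, which encodes the kinase, was dim, between 8.60 and 10.0 on every array.

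A list of other convertases and peptidases, with Ostn, a ligand of the clearance receptor, gave 4 counted genes of 8 listed. None of the 4 was at 2-fold (0.313% to 1.97% of all genes were). Pcsk7, a proprotein convertase related to furin, had 25.8 on STIM1KO TAC, 35.9 on STIM1KO sham, 41.9 on WT TAC and 52.3 on WT sham. Like Furin it was lowest on STIM1KO TAC, at -0.70 against WT TAC (SD 0.52), and it was also lower in STIM1KO than in WT after sham (-0.54, SD 0.30). The summed intensity of the list differed by 1.03-fold at most between arrays. Most of it came from Ide and Ece1, so it does not speak for the dimmer genes such as Pcsk7.

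Of 21 transcription regulators listed for Nppa and Nppb, 9 were counted. None of those was at 2-fold, where 0.313% to 1.97% of all genes were, so a count of 0 in so short a list says little. Between the TAC arrays 4 had a positive and 5 a negative difference (median -0.09). Yy1, a zinc finger factor, read 56.0 on STIM1KO TAC, 88.2 on STIM1KO sham, 78.7 on WT TAC and 66.5 on WT sham, a response of -0.66 in STIM1KO (SD 0.41) and 0.24 in WT (SD 0.28). Gata6, a counted GATA factor, had 318 on STIM1KO TAC, 261 on STIM1KO sham, 286 on WT TAC and 301 on WT sham. It was higher on STIM1KO TAC than on WT TAC, by 0.15. Below the level for counting, Gata4, a GATA factor of cardiomyocytes, had 8.82 on STIM1KO TAC, 20.1 on STIM1KO sham, 25.5 on WT TAC and 21.8 on WT sham. Its difference between the TAC arrays was -1.53 (SD of neighbours 0.50), and -1.11 with the offset. Hdac4, a class II histone deacetylase, was high on STIM1KO TAC at 23.7, against 12.1 on STIM1KO sham, 8.62 on WT TAC and 10.1 on WT sham. Gata4 and Hdac4 are single dim probes on the array that stood apart.

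**Figure D4:**
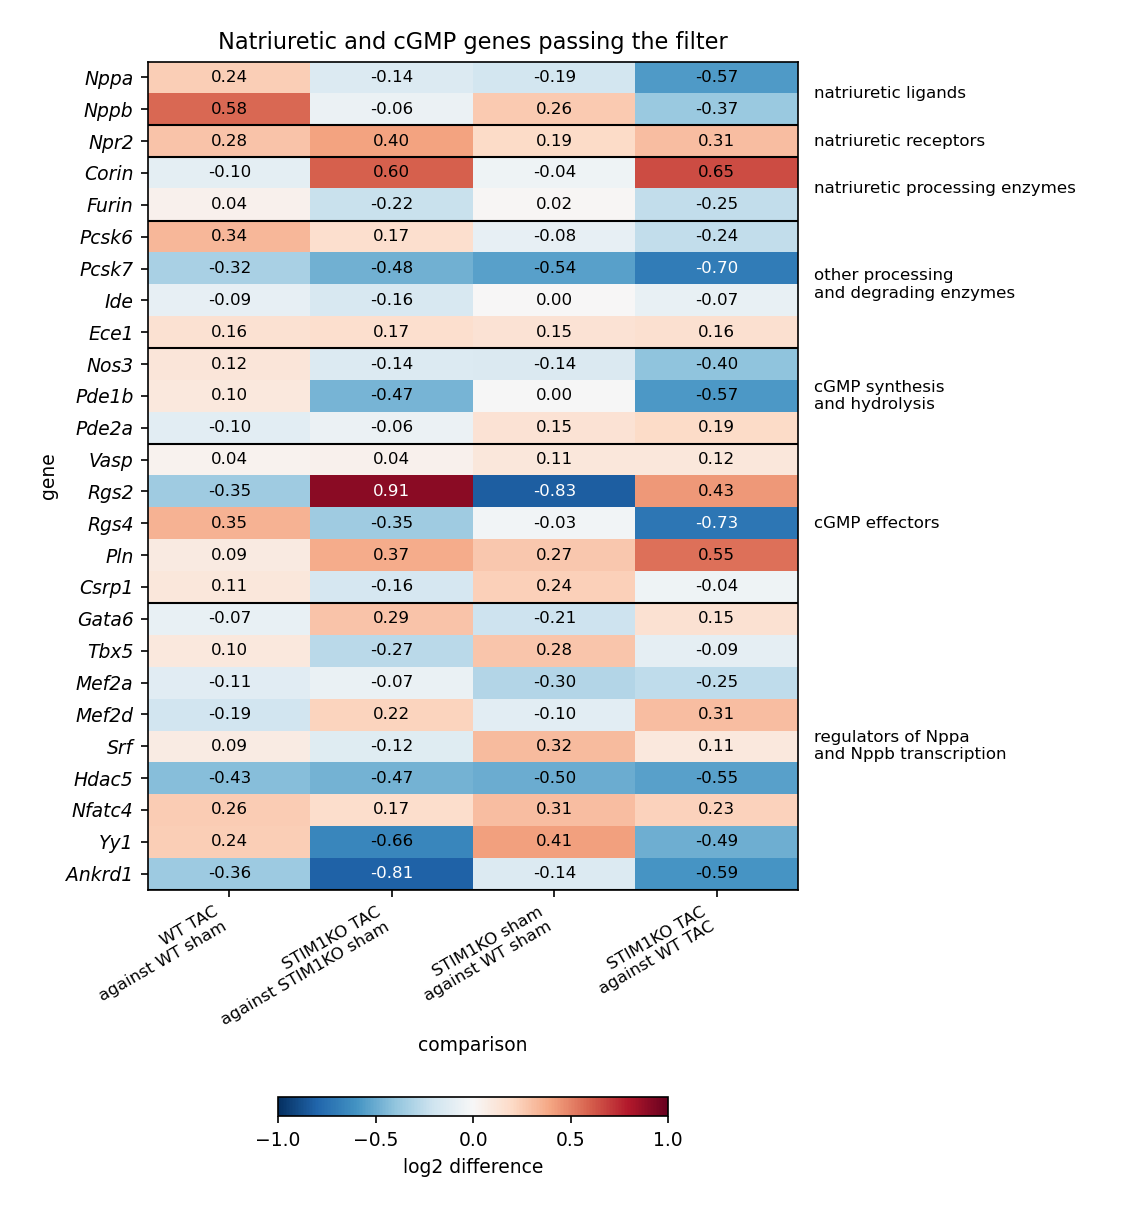
Log2 difference of every counted gene of the natriuretic and cyclic GMP lists (rows) in the responses to TAC and the genotype comparisons (columns), coloured from blue (below 0) to red (above 0), 1 array a group. Rgs2 in the STIM1KO response (0.91) and between the sham arrays (-0.83) has the deepest colours. No counted gene drawn reached a 2-fold difference, which 0.313% to 1.97% of all genes did in these comparisons.

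Since RNA of whole ventricle was measured, fewer cells of a type and less RNA per cell cannot be told apart. The summed intensity of 10 atrial markers was 6477 on STIM1KO TAC, 7169 on STIM1KO sham, 4548 on WT TAC and 4240 on WT sham. It was led by Clu, with 5913 on STIM1KO TAC, 6628 on STIM1KO sham, 4047 on WT TAC and 3747 on WT sham. This sum, mostly Clu, ran higher on the STIM1KO arrays, opposite to Nppa, and does not speak for the dimmer markers. The atrial ligand gene Bmp10 had 177 on STIM1KO TAC, 112 on STIM1KO sham, 95.3 on WT TAC and 85.4 on WT sham, the same top array as Corin. Myl7 read 8.95 on STIM1KO TAC, 8.10 on STIM1KO sham, 11.8 on WT TAC and 8.58 on WT sham, highest where Nppa and Nppb were. Myl4 had 20.9 on STIM1KO TAC, 23.9 on STIM1KO sham, 32.3 on WT TAC and 24.9 on WT sham, the order of Nppa. Sln, near the floor, was also highest on WT TAC, at 3.96. Myl7, Myl4 and Sln were below the level for counting, while Clu and Bmp10 were counted. Of the 6 counted atrial markers, 3 were above 0 and 3 below between the TAC arrays (median 0.04). The part of atrial RNA in these values was not tested.

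Endothelial markers were lower on STIM1KO TAC than on WT TAC in 9 of the 9 counted, with a median of -0.62. Of all genes counted, 51.1% were above 0 there. Their sum over 12 genes was 2527 on STIM1KO TAC, 2920 on STIM1KO sham, 3670 on WT TAC and 4018 on WT sham. Nos3, which endothelium expresses, was also lower on STIM1KO TAC, and the part of the endothelial shift in its value was not tested. Npr3, also expressed by endothelium, differed by -0.07 between the TAC arrays and by 0.16 between the sham arrays, where the endothelial medians were -0.62 and -0.31. Fibroblast markers summed to 9870 on STIM1KO TAC, 13022 on STIM1KO sham, 12205 on WT TAC and 15285 on WT sham, most of it from Dcn and Gsn. Between the TAC arrays 4 of 9 counted fibroblast markers were above 0 and 5 below (median -0.11). The values farthest from 0 were those of Col1a2, a collagen chain, at 0.73 and of Dcn at -1.01. Of 8 counted macrophage markers 6 were above 0 in the STIM1KO response (median 0.42) and 3 in the WT response (median -0.04), and between the TAC arrays 6 were above 0 (median 0.09). Of 6 counted smooth muscle and pericyte markers 2 were above 0 in the STIM1KO response (median -0.25) and 3 in the WT response (median -0.04). The part of these cells in the values of the natriuretic genes was not tested. Ventricular cardiomyocyte markers, from the cell type that makes Nppa, Nppb and Corin, had a median difference of -0.05 between the TAC arrays, 3 above 0 and 4 below among 8 counted, some of them with values set mostly by rank.

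To place the ligand genes among all others, each profile over the 4 arrays was centred on its own mean and compared by root mean square log2 distance with 6856 counted genes. Nearest to Nppa were Trappc6a (0.01), Gemin4 (0.02) and Syncrip (0.03). Trappc6a, a subunit of a vesicle tethering complex, read 224 on STIM1KO TAC, 252 on STIM1KO sham, 342 on WT TAC and 284 on WT sham. Nearest to Nppb were Slc2a1 (0.04), Ndufb2 (0.05) and Gng10 (0.05). Slc2a1, the glucose transporter GLUT1, had 54.5 on STIM1KO TAC, 59.1 on STIM1KO sham, 73.1 on WT TAC and 51.5 on WT sham. The distance between Nppa and Nppb was 0.20, which ranked Nppb 1620th from Nppa and Nppa 1200th from Nppb. With 4 points to a profile, many genes lie this close, and the likeness is a description only.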

How the data were processed

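Per the labels' protocols, amino allyl aRNA was made from total RNA and coupled to Cy5. The authors deposited linear intensity values with a median near 20.0 on every array and with some dim cells empty. Scanner, background correction and scaling method are left out, as not given in the sources used here. Of 23473 probes, 19607 had a value on all 4 arrays. Probe symbols came from the platform annotation, and 3947 were updated through RefSeq names (GRCm38.p6).

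Intensity was taken to log2 and quantile-normalized (limma 3.58.1, R 4.3.3; Python 3.11.15 otherwise) over probes with a value on all arrays. The probe with the highest mean stood for a gene, and genes at or above the median of mean log2 intensity (4.87) were counted. Groups came from sample titles. The number of arrays, 1 a group, limits precision, so no test was made. Genes are at a fold when their log2 difference reaches it. The steps were run on simulated data for WT TAC against WT sham only, with noise of SD 0.2 on each array. Of true 2-fold changes 53% reached 2-fold, and of true 1.5-fold changes 9% did. The comparisons with STIM1KO TAC, whose differences had an SD of 0.42 over all genes counted, were not simulated. A count of 0 at 2-fold can therefore miss real changes.

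Members and gene lists were chosen with earlier results of these data known. Named were all 8 members, the 3 genes nearest in profile to Nppa and Nppb, Stim1, and per list the genes at 2-fold in a response or genotype comparison or else up to 4 with the largest difference. The text prints part of these. Prkg1, Pde2a, Mb, Gsn, Myl7, Myl4, Clu, Myh6, Atp2a2 and the locus neighbours were added outside that rule with their values known. Gata6, Gucy1a1, Gucy1a2, Ide and Ece1 were added likewise. Alternatives were other normalizations, filters, an offset, the mean over probes and a 1.5-fold threshold.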

Additional observations from a re-analysis of the deposited data

Results flagged for a closer look

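For 4 of the 5 counted genes, the array pair of STIM1KO and that of WT lay on opposite sides of 0 in the response to TAC, as they did for 39.4% of the 7020 genes counted. Nppb had -0.06 in STIM1KO and 0.58 in WT, a difference of -0.64. Nppa had -0.14 in STIM1KO and 0.24 in WT, a difference of -0.38. Furin had -0.22 in STIM1KO and 0.04 in WT, a difference of -0.26. Corin had 0.60 in STIM1KO and -0.10 in WT, a difference of 0.69. Several of these responses are close to 0, such as that of Furin in WT (SD of genes of like level 0.28) and of Nppb in STIM1KO (SD 0.39). Each difference rests on 1 array a group and the difference was not tested.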

How the results depend on the processing

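No paired analysis was possible because each group had 1 array. At 1.5-fold in place of 2-fold, the count of natriuretic genes was 1 in place of 0 in 4 places: Corin (higher) in the STIM1KO response, in STIM1KO TAC against WT TAC and in the STIM1KO minus WT response, and Nppb (lower) in the last of these. Of 225 values of the counted genes under the other settings, 2 had another sign, both of Furin between the sham arrays (-0.03 with values as deposited and with quantile normalization over all probes, 0.02 otherwise reported). The median over the counted genes ran between 0.04 (no filter) and 0.31 for TAC against sham in WT, -0.14 and -0.01 for the same in STIM1KO, -0.37 and -0.10 in STIM1KO TAC against WT TAC and -0.38 and -0.18 in the STIM1KO minus WT response. Between the sham arrays it changed sign under 3 settings, to -0.03 with values as deposited, -0.04 with the filter at the 75th percentile and -0.03 with quantile normalization over all probes. The response of Nppb in WT stayed between 0.57 and 0.67, the difference of responses between -0.79 and -0.60 for Nppb and 0.54 and 0.74 for Corin, Nppa between the TAC arrays between -0.71 and -0.55, and Corin there between 0.54 and 0.66. Over all genes, the number at 2-fold followed the filter. In WT it was 22, against 292 without a filter and 7 at the 75th percentile. In STIM1KO it was 130, against 816 and 52, between the sham arrays 39, against 375 and 20, between the TAC arrays 138, against 756 and 46, and in the difference of responses 151, against 1206 and 61. The split of all genes at 1.5-fold moved with the scaling. In the STIM1KO response it was 513 higher and 499 lower, against 380 and 669 with median centring. In STIM1KO TAC against WT TAC it was 443 and 577, against 344 and 741, and in the STIM1KO minus WT response 572 and 417, against 424 and 659. Cyclic loess, quantile normalization over all probes, normalization without the STIM1KO TAC array and subtraction of the median of genes of like level were added after seeing the data. Signal over background limits Nppc, Npr1 and Npr3, and 1 probe a gene limits the rest.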

Other observations

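The genes around Nppb and Nppa on chromosome 4 did not all share a single order over the arrays. Mfn2 and Plod1 had the same order as each other, and none of those below had the order of Nppa or Nppb. Mfn2, a mitochondrial fusion gene, had 1406 on STIM1KO TAC, 1782 on STIM1KO sham, 1626 on WT TAC and 1685 on WT sham. Plod1, a collagen lysyl hydroxylase, read 240.3 on STIM1KO TAC, 366 on STIM1KO sham, 322 on WT TAC and 363 on WT sham. Agtrap, which binds the type 1 angiotensin receptor, had 65.9 on STIM1KO TAC, 52.3 on STIM1KO sham, 42.2 on WT TAC and 40.9 on WT sham. The gene 2510039O18Rik had 181 on STIM1KO TAC, 174 on STIM1KO sham, 149 on WT TAC and 165 on WT sham. Mfn2, Plod1 and Nppa were lowest on STIM1KO TAC, Agtrap and 2510039O18Rik were highest there, and Nppb and Nppa were highest on WT TAC.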
